A study of Mus musculus with 4 samples.

Results

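The interferon response genes followed here are Isg15, Ifitm1, Ifitm2, Ifitm3, Ly6e, Ifit1, Ifit3, Irf7 and Bst2. They were found by their symbols in the gene tables of the series, where all 9 names matched 1 gene each among 27998 genes. Their transcripts were counted in 4 single-cell RNA sequencing libraries from the hindlimbs of mice that had been burned on the back, over 30% of the body surface, and had the left Achilles tendon cut, with tissue taken at day 7. The libraries were slie/slie injured (left limb), slie/slie uninjured (right limb), littermate control injured and littermate control uninjured. The slie allele is a spontaneous deletion in Ddr2, a collagen receptor gene, and it was carried in homozygous form in every cell of the slie/slie mice. All mice had the burn, so the right limbs were uninjured at the tendon but came from burned animals. Each library was made from limbs of 2 mice combined before processing, so a group is 1 library. Differences between groups had no replicates to be tested against, no p-value is given, and every interval below is a 95% interval for counting error only.

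Interferons are secreted proteins that bind receptors at the cell surface and activate the Jak kinases and, through them, transcription factors. Activated factors then bind a short DNA element, the interferon-stimulated response element, in the promoters of target genes. Many of the targets block steps in the life of a virus, and several are also present at some level without infection, among others in cells of the blood and of the vessel lining. Among the members, Isg15 is a ubiquitin-like protein that is attached to other proteins. Ifitm1, Ifitm2 and Ifitm3 are small membrane proteins that hinder virus entry, and Ly6e is a lipid-anchored surface protein that also affects virus entry. Ifit1 binds foreign RNA by its cap, and Ifit3 is its binding partner in human cells. Bst2, also called tetherin, holds budding virus particles at the cell surface. Irf7 is a transcription factor that drives the genes of interferon alpha.

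In mm10, the build of the files, 4 members lie on chromosome 7. Ifitm2 (140954837 to 140955987, minus strand), Ifitm1 (140967221 to 140969825, plus strand) and Ifitm3 (141009586 to 141010770, minus strand) form a cluster, and Irf7 lies at 141262706 to 141266481 on the minus strand. Ifit3 (34583531 to 34588731) and Ifit1 (34640871 to 34650009) are neighbours on the plus strand of chromosome 19. Isg15 lies on chromosome 4 (156199424 to 156200818, minus strand), Bst2 on chromosome 8 (71534255 to 71537456, minus strand) and Ly6e on chromosome 15 (74955051 to 74959905, plus strand). Of the 98-base stretches in the 500 bases at the 3' end of each transcript, 23.1% of those of Ifitm2 occur identically in Gm11951, Gm45717 or Gm8865 and 4.71% of those of Ifit3 in Ifit3b, so reads from there cannot be assigned to 1 gene. No stretch of the other 7 members was shared.

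The promoters are shown for an element known from interferon targets. The members were chosen as interferon response genes, so the share that carries it is not independent of that choice. RefSeq sequences of GRCm38.p6, from 250 bases before to 50 bases after the start of transcription, were available for 8 members (all but Ly6e). The core of the interferon-stimulated response element was searched as GAAA followed, after any 2 bases, by GAAA, on either strand. It was found in 6 of the 8 members, against 1131 of 32851 mouse promoters of that length (3.44%). Part of the sequence is given for 5 of them, 5' to 3' on the strand of the gene, with the matches in capitals. Runs of capitals longer than 10 bases are overlapping matches. For Ifit1 the stretch from the first match to the last is given.
Isg15 (chr4:156200849-156200978, minus strand): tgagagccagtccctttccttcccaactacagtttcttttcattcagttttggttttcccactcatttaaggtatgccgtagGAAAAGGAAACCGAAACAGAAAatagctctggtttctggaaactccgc
Ifit1 (chr19:34640785-34640813, plus strand): TTTCACTTTCcagtctcagTTTCAGTTTC
Ifit3 (chr19:34583369-34583498, plus strand): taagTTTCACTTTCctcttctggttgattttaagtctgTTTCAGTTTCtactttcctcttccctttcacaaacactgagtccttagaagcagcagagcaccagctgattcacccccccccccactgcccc
Bst2 (chr8:71537503-71537632, minus strand): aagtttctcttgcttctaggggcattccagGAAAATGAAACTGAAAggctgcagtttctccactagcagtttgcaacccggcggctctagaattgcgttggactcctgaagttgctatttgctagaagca
Ifitm2 (chr7:140955992-140956121, minus strand): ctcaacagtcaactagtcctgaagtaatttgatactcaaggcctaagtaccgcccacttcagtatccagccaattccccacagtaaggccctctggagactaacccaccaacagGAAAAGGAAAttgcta

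Isg15 carried 3 overlapping matches, which begin 78, 72 and 66 bases before the start. Ifit1 had 2 matches, at -104 and -85, and Ifit3 had 2, at -156 and -122. The 10 bases of each match were TTTCACTTTC and TTTCAGTTTC in both Ifit genes. Bst2 had 2 overlapping matches at -130 and -124, and Ifitm2 had 1 at -46. Ifitm3, not printed, had 2 matches just after the start, at positions 3 and 20. Ifitm1 and Irf7 had none in this window. In both, the stretch before the start used overlaps an exon of the gene itself, so the gene has another start further upstream. For Ifitm1 the window begins at 140967826, past the first base of the gene at 140967221. A second element, TTCNNNGAA, known from genes that respond to interferon gamma, was found in Bst2 (at -136, where it overlaps the first match) and Ifitm3 (at position 14), and in 8.3% of all promoters. These matches describe letters in a window and do not show binding.

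The libraries differed in size. After the filter on genes per cell and mitochondrial share, 246 cells of slie/slie injured, 184 of slie/slie uninjured, 751 of control injured and 60 of control uninjured tissue remained, with 242888 to 4032783 UMIs (unique molecules counted) per library and medians of 1218 to 4841 UMIs per cell. Over all barcodes, Ddr2 had 0 and 2 UMIs in the slie/slie injured and uninjured libraries, against 116 and 5 in the control injured and uninjured libraries. Cells with under 0.5% mitochondrial UMIs, which can be damaged cells or cell fragments, made up 61.8%, 12.0%, 50.5% and 5% of cells in the order slie/slie injured, slie/slie uninjured, control injured and control uninjured. Of 7 tendon cell markers, 6, 7, 6 and 3 were read in the same order of libraries, and Scx, Mkx, Kera and Chad were at 0 in the control uninjured library. Levels are in CPM (UMIs of the gene for each 1e6 UMIs in the summed cells). Clusters were made without the members and the other interferon genes. Genes whose levels go with those of the members stayed in, so levels by cell class are a description. Names of classes rest on marker genes, and clusters of fibroblast-like cells were kept apart by number because they were mixed differently in the libraries.

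Across whole libraries, the members split into groups of genes with different patterns. Ifitm1 had 677 CPM in slie/slie injured, 65.6 in slie/slie uninjured, 525 in control injured and 12.4 in control uninjured tissue. It was thus high in both injured limbs and low in both uninjured limbs. Bst2 had 74.2, 190, 117 and 399 CPM in the same order of libraries, and Ly6e had 281, 516, 378 and 918 CPM. For both genes each injured limb was below the uninjured limb of its genotype. Isg15 had 59.4, 92.1, 113 and 194 CPM in that order, lowest in slie/slie injured and highest in control uninjured tissue. Ifit1 had 1, 16, 15 and 9 UMIs and Ifit3 had 2, 26, 26 and 9 UMIs, too few for firm levels in any library. Irf7 spanned only 20.8 to 37.1 CPM, and the intervals of all 4 libraries overlapped. Ifitm2 spanned 1120 to 1734 CPM and Ifitm3 1274 to 2100 CPM.

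**Figure D1:**
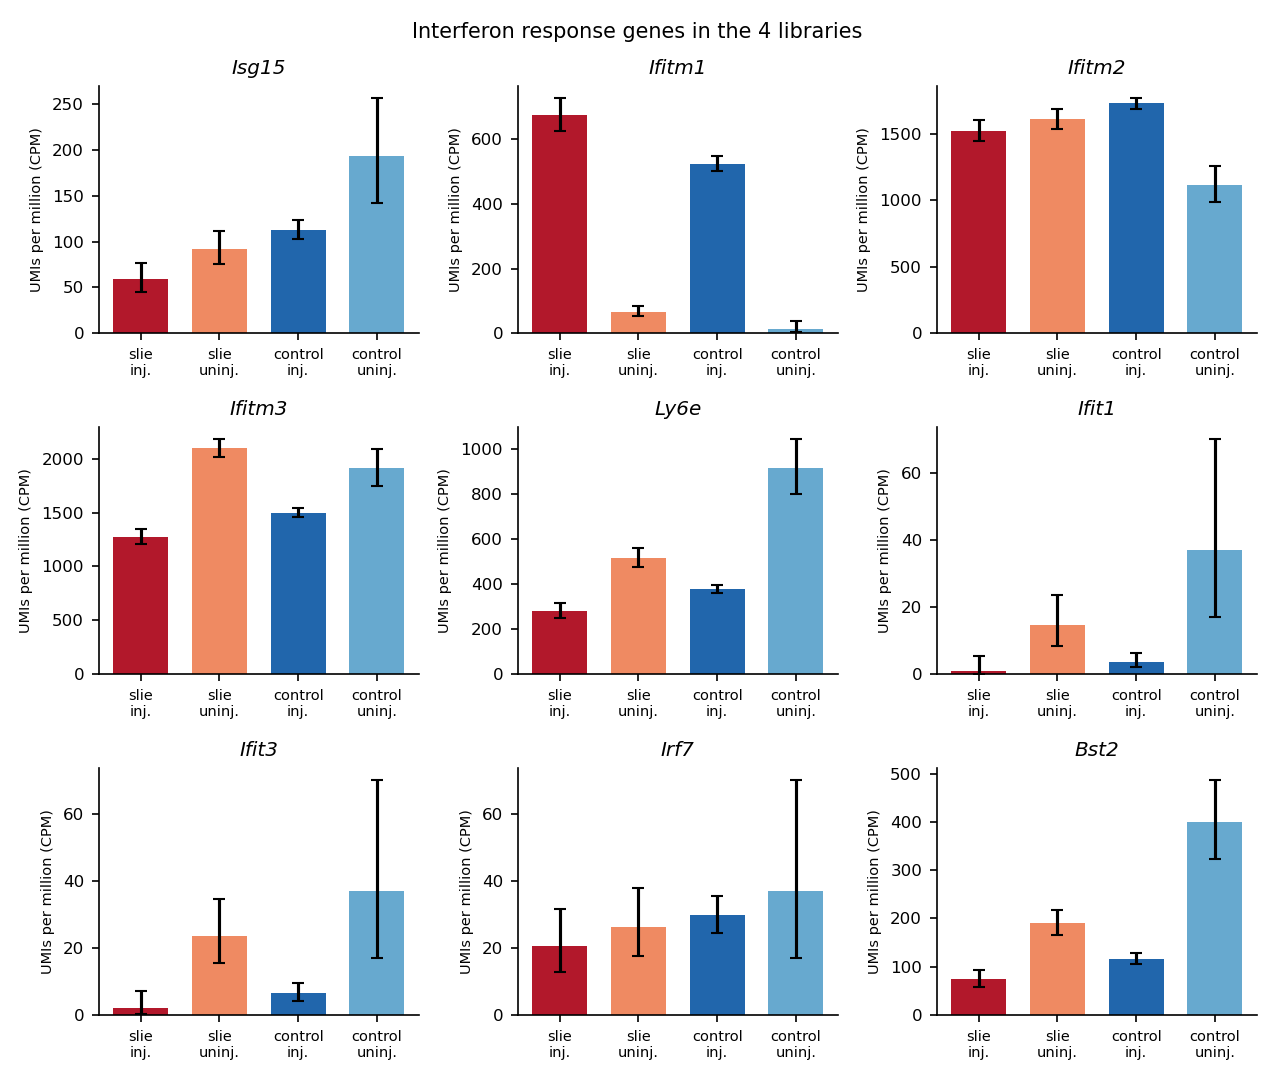
Level of each member in the 4 libraries, in CPM over the filtered cells, with exact 95% Poisson intervals for counting error. Ifitm1 stands at 677 and 525 CPM in the slie/slie and control injured limbs and at 65.6 and 12.4 CPM in the uninjured limbs, while Ly6e and Bst2 are lower in the injured limb of each genotype.

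The classes that held the transcripts differed by gene. In the control injured library, neutrophil-like cells held 44.1% of the Ifitm1 UMIs and 32.2% of the Isg15 UMIs, with 5.53% of all UMIs. Dendritic-like cells, with 2.98% of all UMIs there, held another 26.4% of the Ifitm1 UMIs. Endothelial-like cells, with 13.4% of all UMIs, held 52.6% of the Bst2 UMIs, 32.3% of the Ly6e UMIs and 12 of the 15 Ifit1 UMIs. Monocyte or macrophage-like cells there held 24.8% of the Ifitm1 UMIs, and endothelial-like cells held 25.9% of the Isg15 UMIs. In the slie/slie injured library, dendritic-like cells held 55.0% of the Ifitm1 UMIs, neutrophil-like cells 36.5% and monocyte or macrophage-like cells 2.05%. Neutrophil-like cells held 40% and erythroid-like cells 16.7% of the Isg15 UMIs there, and the single Ifit1 UMI was in a neutrophil-like cell. The erythroid-like cluster also had the T cell genes Nkg7, Cd3d and Icos among its leading genes, so its shares and levels may not come from erythroid cells alone. Endothelial-like cells, only 5 in that library, held 45.3% of its Bst2 UMIs. In uninjured tissue, endothelial-like cells held 53.5% of Isg15, 59.1% of Bst2 and 67.8% of Ly6e UMIs in the slie/slie library, and 72.3%, 75.3% and 90.1% in the control library.

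Within the control injured library, the levels of several members differed widely between classes. Isg15 stood at 659 CPM in neutrophil-like, 264 in erythroid-like, 218 in endothelial-like, 110 in monocyte or macrophage-like and 83.2 in dendritic-like cells, and at 3.39 and 27.4 CPM in fibroblast-like clusters 1 and 5. Ifitm1 reached 4650 CPM in dendritic-like and 4186 in neutrophil-like cells, 693 in monocyte or macrophage-like cells, and 7.04 CPM in keratinocyte-like, 27.7 in endothelial-like, 57.1 in pericyte or smooth muscle-like, 32.8 in fibroblast-like cluster 1 and 65.9 in fibroblast-like cluster 5 cells. Ifitm3 had a broader spread, with 2432 CPM in endothelial-like, 2173 in monocyte or macrophage-like, 2075 in unnamed cluster 0, 1988 in dendritic-like, 1889 in pericyte or smooth muscle-like and 1682 in fibroblast-like cluster 5 cells. It was lowest in erythroid-like cells, at 38.3 CPM. Bst2 was highest in endothelial-like cells (456 CPM), then dendritic-like (216) and monocyte or macrophage-like cells (173), and had 8.96 CPM in neutrophil-like cells. Ly6e was also highest in endothelial-like cells, at 908 CPM, against 122 CPM in pericyte or smooth muscle-like to 608 in monocyte or macrophage-like cells, the lowest and highest of the other classes. Irf7 stood between 70.0 and 76.2 CPM in neutrophil-like, dendritic-like and monocyte or macrophage-like cells, 42.4 in endothelial-like cells, and had no UMI in keratinocyte-like cells. Ifit1 was read in endothelial-like cells at 22.1 CPM and by single UMIs in 3 other classes.

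**Figure D2:**
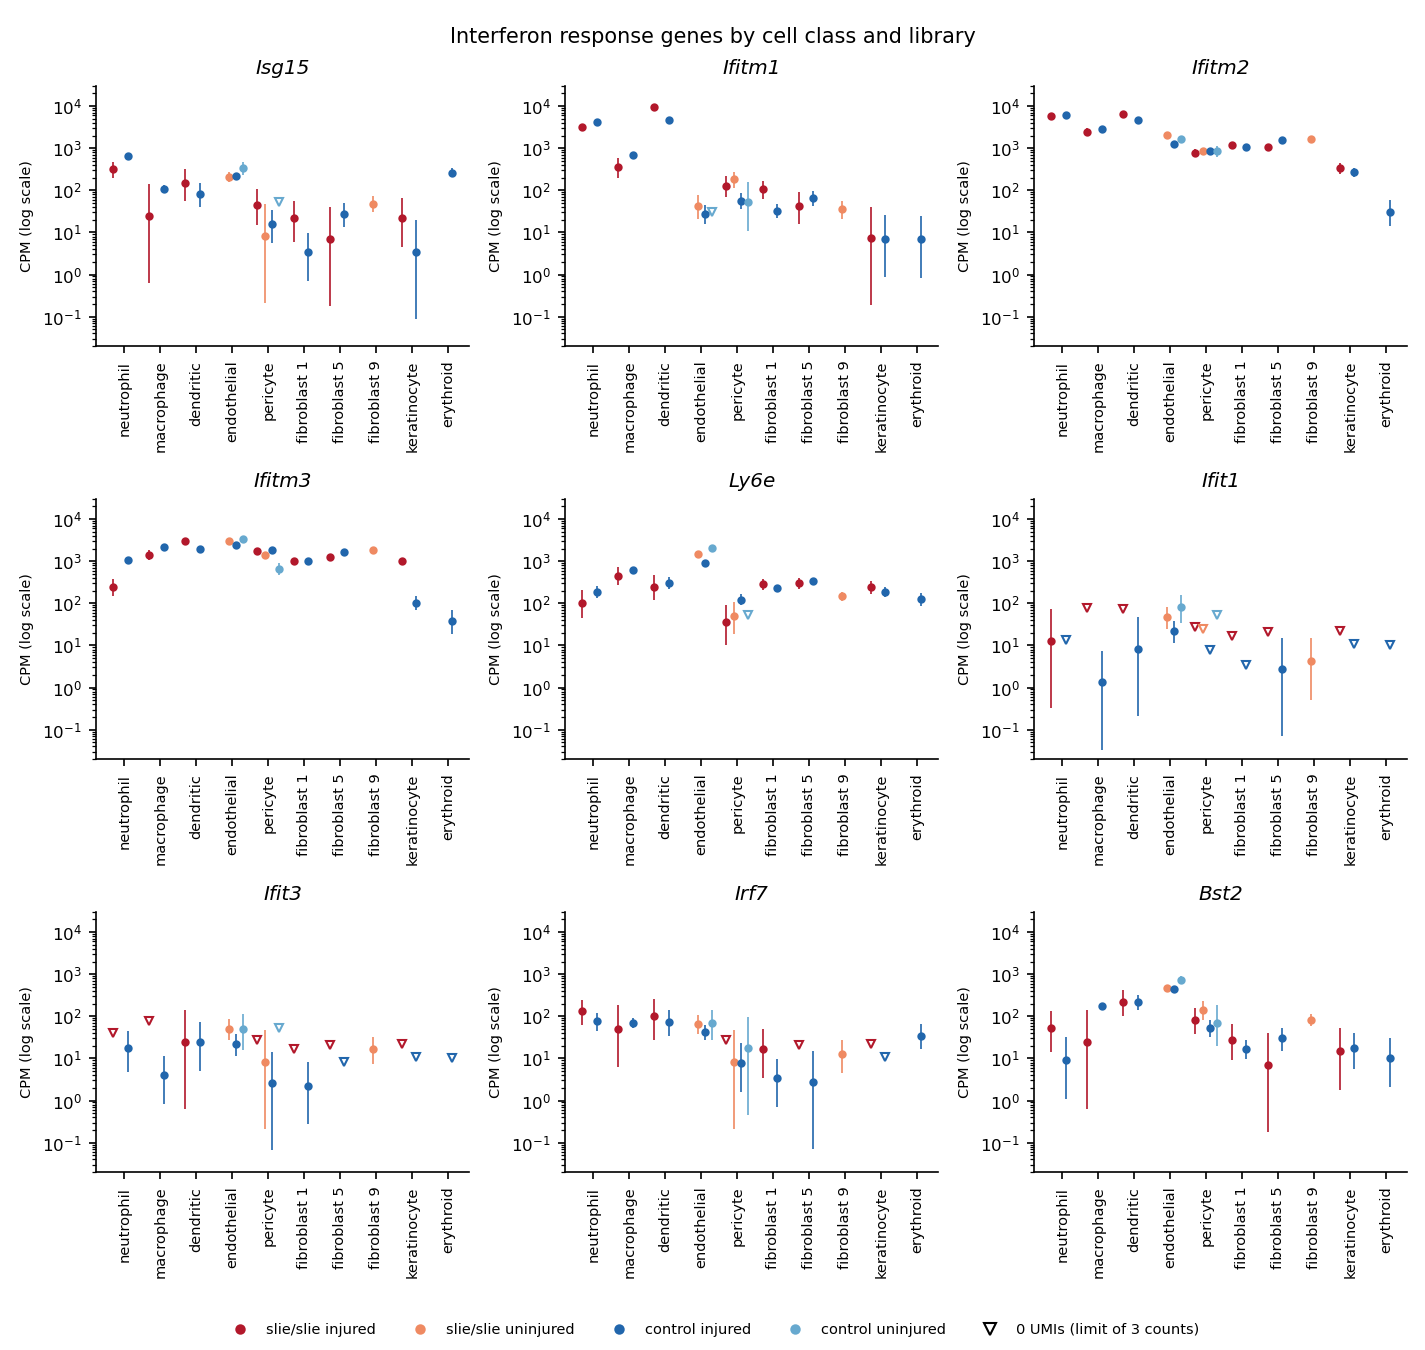
Level of each member by cell class and library in CPM on a log scale, with exact 95% Poisson intervals, open triangles for 0 UMIs at the limit of 3 counts, cluster numbers after fibroblast, and classes with under 10 cells in a library left out. Ifitm1 is 4186 CPM in control injured neutrophil-like cells and 7.04 in keratinocyte-like cells of the same library, while Ifitm3 there spans 38.3 CPM in erythroid-like to 2432 CPM in endothelial-like cells.

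In the injured limbs, 3 of 8 measured members (Isg15, Bst2 and Ifit3) were called lower in slie/slie than in control tissue, and the other 5 stayed inside 1.5-fold. A gene was called higher or lower at 1.5-fold or more, with at least 20 UMIs over both libraries. Isg15 had 60 UMIs (59.4 CPM) in slie/slie injured tissue, against 456 UMIs (113 CPM) in control injured tissue, a ratio of 0.525 (0.394 to 0.688). Bst2 had a ratio of 0.637 (0.492 to 0.814). Ifit3, with 2 UMIs in slie/slie and 26 in control tissue, had a ratio of 0.307 and an interval of 0.0353 to 1.23 that includes 1. Ifitm1 was at 1.29 (1.18 to 1.40), Ifitm2 at 0.880, Ifitm3 at 0.848, Ly6e at 0.743 and Irf7 at 0.698 (0.417 to 1.12), all inside 1.5-fold, and Ifit1 had too few UMIs. Thus 0 of 8 measured members were called higher and 3 lower, where 12.3% of all 11313 genes measured were called higher and 16.5% lower. With cells thinned to 500 UMIs 0 members were called lower, and the summed members, at 0.888, stood at 1.01 without the 3 deepest cells of each library. The median log2 ratio was -0.47 over the members and -0.01 over all genes. Without the 3 cells with the most UMIs of the gene, Ifitm1 stood at 0.822, and 2 dendritic-like cells held 267 (slie/slie) and 344 (control) of its UMIs. In these sums over all cells, fewer cells of a type and less RNA per cell cannot be told apart.

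Other genes of the pathway are given from lists of genes with known roles, again as sums over all cells. Monocyte or macrophage-like cells held 3.92% of the UMIs in slie/slie injured and 18.8% in control injured tissue. Shares of neutrophil-like cells were 7.57% and 5.53%, and those of keratinocyte-like cells 13.4% and 7.05%. The class makeup and a change within cells cannot be told apart in these sums. Of the other antiviral targets, 0 of 32 measured were called higher and 17 lower in slie/slie injured against control injured tissue, with a median log2 ratio of -0.65, where all genes measured had 12.3% called higher, 16.5% lower and a median of -0.01. Among the 4 with the most UMIs, Slfn2 had a ratio of 0.437 (0.336 to 0.560) and Ifi27l2a one of 0.50 (0.388 to 0.636), while Ifi27 stood at 1.07 and Ifi203 at 1.33. Of the genes known for their response to interferon gamma, which serve antigen presentation and related tasks, 1 of 18 was called higher and 5 lower (median -0.31). The class I antigen genes H2-D1 and H2-K1 stood at 0.759 and 0.863 and their light chain gene B2m at 0.687. Of the receptors and Jak kinases, 0 of 8 were called higher and 2 lower, with Ifngr1 at 0.692, Ifngr2 at 0.710 and Jak1 at 0.933. Of the transcription factors of the pathway, 0 of 8 were called higher and 3 lower, among them Irf2 at 0.617 (0.452 to 0.829). Of the negative regulators, 1 of 8 was called higher and 3 lower, with Socs3 at 0.540 (0.407 to 0.705) and Samhd1, which breaks down nucleotides, at 0.504 (0.364 to 0.684). Of the sensors of foreign nucleic acid and their adaptors, 1 of 12 was called higher and 4 lower (median -0.36). Of the other Ly6 genes, relatives of Ly6e, 0 of 4 were called higher and 3 lower, with Ly6c1 at 0.324 (0.253 to 0.410) and Ly6a at 0.482 (0.411 to 0.562), and of the other Ifitm genes 0 of 2 higher and 1 lower, Ifitm6 at 0.447 (0.237 to 0.778). Ligands were almost absent: of 19 interferon genes, Ifng alone had any UMI over all barcodes of the 4 libraries. Its 6 UMIs came from 1 slie/slie injured cell with 19830 UMIs in the erythroid-like cluster, which had the T cell genes Nkg7, Cd3d and Icos among its leading genes.

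Neutrophil-like cells showed a difference within the Ifitm family. There were 42 of them in slie/slie injured and 147 in control injured tissue, with medians of 1664 and 1215 UMIs per cell. Their median mitochondrial shares were 0.152% and 0.131%, both under the 0.5% mark given above. The alternative without cells under that mark was not run for this class, for under 10 cells left. Ifitm3 had 19 UMIs (248 CPM) in slie/slie cells, against 244 UMIs (1093 CPM) in control cells, a ratio of 0.227 (0.134 to 0.362). Its neighbours in the gene cluster stayed inside 1.5-fold: Ifitm1 had 3267 CPM in slie/slie and 4186 CPM in control cells (0.781, interval 0.676 to 0.898), and Ifitm2 had 5764 and 6274 CPM (0.919, interval 0.824 to 1.02). The intervals of Ifitm3 and of its neighbours did not overlap. With the 3 cells richest in the gene left out of each group, Ifitm1 was at 0.642, past 1.5-fold. Ifitm2 was then at 0.764 and Ifitm3 at 0.165. No Ifitm1 UMI was read in 38.1% of slie/slie and 21.1% of control cells. The closeness of Ifitm1 to the control level thus rests in part on few cells. Isg15 had 24 UMIs (314 CPM) in slie/slie cells, against 147 UMIs (659 CPM) in control cells, a ratio of 0.476 (0.296 to 0.736). Ly6e (8 and 42 UMIs, ratio 0.555) was called lower and Irf7 (10 and 17 UMIs, ratio 1.72) higher, with intervals that include 1, and 8 of the 10 slie/slie Irf7 UMIs came from 1 cell. Without the 3 deepest cells of each group, Irf7 was at 0.413. Ifit1 had 1 and 0 UMIs, Ifit3 had 0 and 4, and Bst2 had 4 and 2, in slie/slie and control cells. Thus 1 of 6 measured members was called higher and 3 lower, where 14% of 1829 genes were called higher and 30.3% lower. The median log2 ratio was -0.60 over the members and -0.19 over all genes. Of the other antiviral targets 0 of 8 were called higher and 4 lower (median -0.61), with Slfn2 at 0.602 (0.398 to 0.885), and of the interferon gamma targets 0 of 5 higher and 2 lower (median -0.53), with B2m at 0.517 (0.390 to 0.676).

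The class joins 2 clusters that were mixed differently, with cluster 8 holding 27 of the 42 slie/slie and 47 of the 147 control cells. Cluster 2 was led by Cxcr2, Retnlg and Csf3r, genes of circulating neutrophils, and cluster 8 by the chemokine genes Ccl4, Ccl3 and Cxcl2. Ifitm3 was lower in slie/slie cells within both clusters. In cluster 2 it had 499 CPM in slie/slie and 1402 CPM in control cells, a ratio of 0.356 (0.186 to 0.624). In cluster 8 it had 119 CPM in slie/slie and 629 CPM in control cells, a ratio of 0.189 (0.0665 to 0.438). Isg15 had 307 CPM in slie/slie and 522 CPM in control cells of cluster 2 (0.589, interval 0.245 to 1.22) and 317 and 865 CPM in cluster 8 (0.367, interval 0.20 to 0.634). Without the 3 deepest cells of each group, Isg15 was at 1.07 in cluster 2 and at 0.650 in cluster 8. With the 3 cells richest in Isg15 left out instead, it was at 0.227 in cluster 2, on 1 and 29 UMIs. In cluster 8 it was then at 0.726, on 9 and 22 UMIs and inside 1.5-fold. Ifitm1 stood at 0.898 and 0.965 and Ifitm2 at 1.10 and 0.963 in clusters 2 and 8, with intervals that include 1. With the 3 cells richest in the gene left out of each group, Ifitm1 was at 0.636 and 0.671 in clusters 2 and 8. Ifitm2 was then at 0.779 and 0.802. In cluster 2, 0 of 5 measured members were called higher and 2 lower, where 15.2% of all genes measured were called higher and 33% lower, and the median log2 ratio was -0.16 over the members and -0.22 over all genes. In cluster 8, 0 of 4 members were called higher and 2 lower, where 22.7% of genes were called higher and 22.4% lower, and the medians were -0.75 and -0.01.

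**Figure D3:**
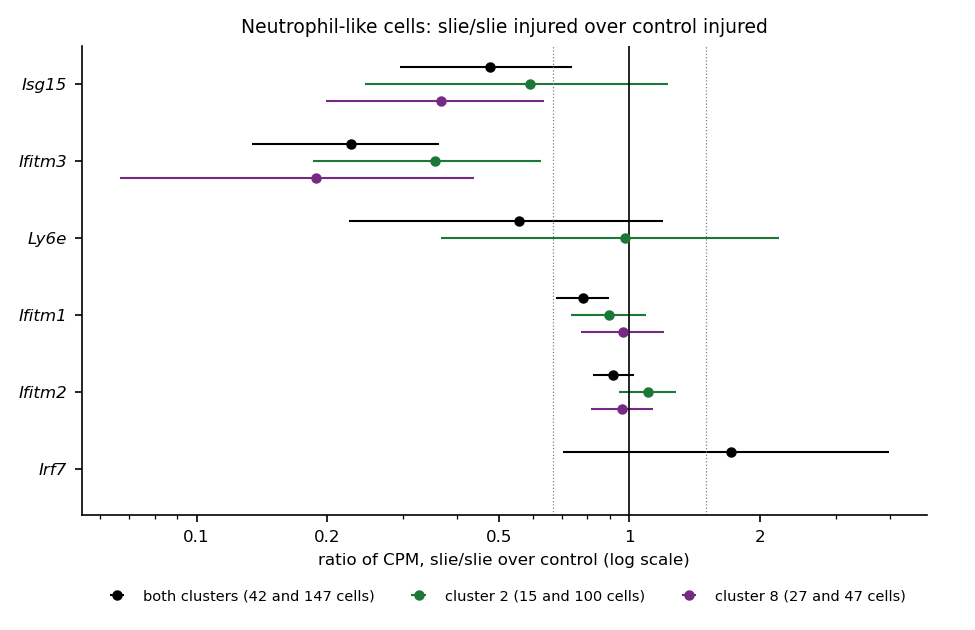
Ratio of CPM in neutrophil-like cells, slie/slie injured over control injured, on a log scale, for both clusters together, cluster 2 and cluster 8, with points for ratios, bars for exact 95% intervals, dotted lines at 1.5-fold, and genes with under 20 UMIs in a set left out. Ifitm3 lies at 0.227, 0.356 and 0.189, left of Ifitm1 and Ifitm2 in each set.

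The number of UMIs per cell separated Ifitm3 from Isg15. At least 1 Ifitm3 UMI was read in 10 of 42 slie/slie neutrophil-like cells (23.8%, interval 12.1 to 39.5) and in 78 of 147 control cells (53.1%, interval 44.7 to 61.3). With each cell thinned to 500 UMIs, the shares were 2.38% (1 of 42) and 31.3% (46 of 147), the first a single UMI from which no size is read. Ifitm3 was found in 59.6% and 66.3% of cells of the unnamed cluster 0, which had medians of 616 and 829 UMIs in the slie/slie and control injured libraries. In control injured tissue cluster 0 held 4.61% of the Ifitm3 UMIs with 3.33% of all UMIs, and neutrophil-like cells 4.03% with 5.53%. Cluster 0 is another kind of cell, so its shares give no measure of the part of depth in neutrophil-like cells. Isg15 was read in 15 of 42 slie/slie cells (35.7%) and in 39 of 147 control cells (26.5%), and in 11.9% and 15.6% after thinning. This order of the unthinned shares goes against the CPM and the intervals overlap, so no order is read from it. The cell with the most Isg15 UMIs held 3 among slie/slie and 33 among control cells. Without the 3 cells with the most Isg15 UMIs in each group, the ratio was 0.694, and with cells weighted equally it was 0.715, both inside 1.5-fold. The ratio of Ifitm3 lay between 0.165 and 0.251 under the alternatives run other than thinning. As a background for Isg15, keratinocyte-like cells held a UMI in 2 of 25 slie/slie and 1 of 38 control cells, and cluster 0 in 1 of 57 and 1 of 101 cells. Ifitm3 was read in every class of the control injured library, so no class gives its background.

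**Figure D4:**
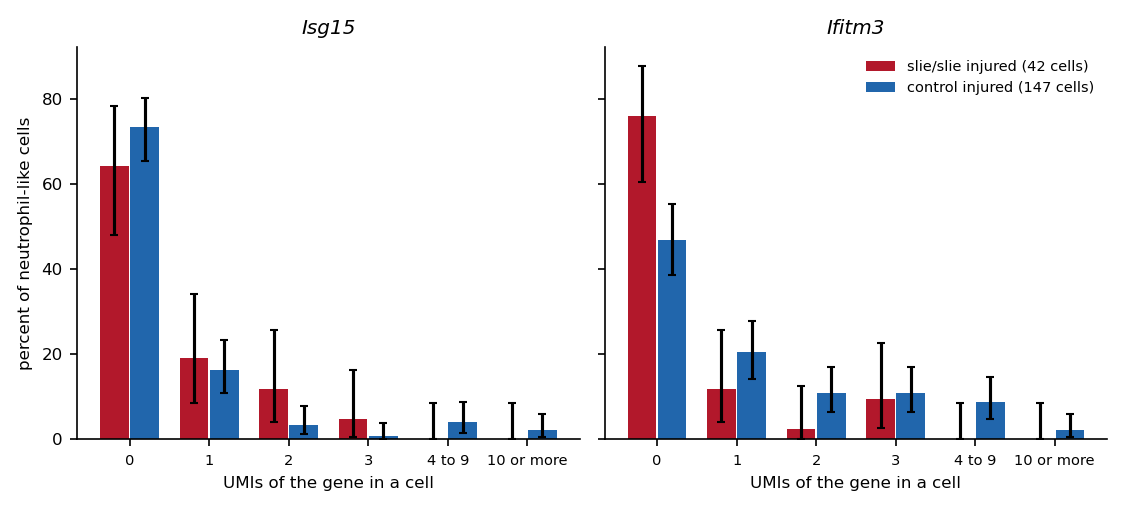
Percent of neutrophil-like cells by the number of Isg15 and Ifitm3 UMIs in the cell, for 42 slie/slie injured and 147 control injured cells, with exact 95% binomial intervals. For Ifitm3, 76.2% of slie/slie and 46.9% of control cells held none, and for Isg15 no slie/slie cell held 4 or more UMIs.

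Marker genes of other cell types were also read in these neutrophil-like cells. The 12 neutrophil markers summed to 138520 CPM in slie/slie and 136534 CPM in control cells, with none at 0. The 15 monocyte and macrophage markers summed to 16742 CPM in slie/slie and 5476 CPM in control cells, with 9 (among them Adgre1, Mrc1, C1qa, C1qb and C1qc) and 3 of them at 0. The fibroblast markers summed to 588 and 1300 CPM and the erythroid markers to 797 and 1049 CPM. Their part in the differences above was not tested.

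In monocyte or macrophage-like cells, 13 of them in slie/slie and 105 in control injured tissue, Ifitm3 and Ifitm1 were called lower in slie/slie cells. Ifitm3 had 1388 CPM in slie/slie and 2173 CPM in control cells (0.639, interval 0.479 to 0.836), and Ifitm1 had 353 and 693 CPM (0.509, interval 0.277 to 0.862). Isg15 (1 UMI in slie/slie, 83 in control cells) and Bst2 (1 and 131) were called lower on 1 UMI each, and Isg15 was at 1.04 with cells weighted equally. Ifitm1 was at 3.39 with clusters at resolution 0.5, where, as with thinned cells, 1 member was called lower. Ifitm2, Ly6e and Irf7 stood at 0.861, 0.747 and 0.721. Thus 0 of 7 were called higher and 4 lower, where 21.4% of 4964 genes were called higher and 21.2% lower, and the median log2 ratio was -0.65 over the members and -0.02 over all genes. Without the 3 deepest cells of each group, Ifitm3 was at 1.01, so its call rests on those cells. Dendritic markers summed to 28032 CPM in the slie/slie and 7040 CPM in the control cells, and their part in these values was not tested.

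Fibroblast-like cells gave no common direction for the members. In cluster 1, led by Col11a1 and Sfrp1, with 21 slie/slie and 114 control injured cells, Ifitm2 had a ratio of 1.13 (0.966 to 1.31), Ifitm3 of 1.01 (0.856 to 1.18) and Ly6e of 1.25 (0.902 to 1.71). Ifitm1, at 3.23 (1.71 to 5.96), was called higher, and 17 of its 19 slie/slie UMIs came from 1 cell, so that with cells weighted equally it was at 0.952. Bst2 was called higher at 1.64 (0.468 to 4.76). With these, 2 of 5 members were called higher and 0 lower, where 13% of 6271 genes were called higher and 23.5% lower, and the medians were 0.32 and -0.08. In cluster 5, which carried cell cycle genes among its leading genes and held 24 slie/slie and 64 control cells, Ifitm2 stood at 0.706 (0.587 to 0.845) and Ifitm3 at 0.740 (0.623 to 0.877), inside 1.5-fold. There 0 of 4 members were called higher and 1 lower (Ifitm1, on 6 and 24 UMIs, and at 2.92 with cells weighted equally), against 13.6% and 26% of 3667 genes, with medians of -0.47 and -0.07. The interferon gamma targets went the other way in cluster 5, with 4 of 5 called higher and 0 lower. H2-D1 had 481 CPM in slie/slie and 178 CPM in control cells (2.70, interval 1.89 to 3.85), H2-K1 had 276 and 121 CPM (2.29, interval 1.45 to 3.60) and B2m had 297 and 184 CPM (1.62, interval 1.07 to 2.41). Socs3, a feedback inhibitor, had 3 UMIs in slie/slie and 64 in control cells there (0.121, interval 0.0243 to 0.369). The dependence of these genes on single cells was not tested. Without the 3 deepest cells of each group, the summed member UMIs of cluster 5 fell from 382 to 111 in slie/slie and from 1350 to 554 in control cells. Ly6d, a leading gene of keratinocyte-like cluster 10, had 27 UMIs in slie/slie and 0 in control cells of cluster 5, and its part was not tested. Cluster 9 was made up almost wholly of slie/slie uninjured cells (67 of 71), in which Ifitm3 had 1857, Ifitm2 1633, Ly6e 147, Bst2 83.8 and Isg15 48.2 CPM, and it had no counterpart to be compared with.

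Smaller classes of the injured limbs gave members in both directions. In dendritic-like cells (20 in slie/slie, 51 in control tissue), Ifitm1 had 9361 CPM in slie/slie and 4650 CPM in control cells (2.01, interval 1.76 to 2.30) and Ifitm3 had 3062 and 1988 CPM (1.54, interval 1.23 to 1.92). Single cells held 267 of the 376 slie/slie and 344 of the 559 control Ifitm1 UMIs. That is 2 of 5 members called higher and 0 lower, where 14.1% of 1201 genes were called higher and 23.3% lower. In pericyte or smooth muscle-like cells (19 and 54), Ifitm1 stood at 2.24 (1.06 to 4.59) and Bst2 at 1.59 (0.636 to 3.65), called higher, and Ly6e at 0.30 (0.0785 to 0.821), called lower, while Ifitm2 (0.887) and Ifitm3 (0.945) were inside 1.5-fold. There 13.2% of 4059 genes were called higher and 24.8% lower. In keratinocyte-like cells (25 and 38), 1 of 3 members was called higher and 0 lower, where 28.6% of 2671 genes were called higher and 14% lower. This was Ifitm3, at 9.69, and 120 of its 134 slie/slie UMIs were in 1 cell.

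Endothelial-like cells were numerous enough in both uninjured limbs and in the control injured limb. Isg15 had 208 CPM in slie/slie uninjured (49 cells), 218 in control injured (26 cells) and 339 in control uninjured cells (17 cells). Bst2 had 475, 456 and 728 CPM and Ly6e 1483, 908 and 2005 CPM in the same order. For these 3 genes the control uninjured cells were highest. Set against the control uninjured cells, the control injured cells had ratios of 0.642 for Isg15 (0.435 to 0.970), 0.453 for Ly6e (0.384 to 0.536), 0.626 for Bst2 (0.480 to 0.824) and 0.277 for Ifit1 (0.104 to 0.783). Irf7 was at 0.608 (0.252 to 1.68), Ifitm2 at 0.774 and Ifitm3 at 0.739. Thus 0 of 7 members were called higher and 5 lower, where 34.2% of 4786 genes were called higher and 19.2% lower, and the median log2 ratio was -0.68 over the members and 0.21 over all genes. Of the interferon gamma targets 0 of 15 were called higher and 12 lower (median -1.04), with Psmb8, a subunit of the immunoproteasome, at 0.342 (0.228 to 0.518). The receptors and kinases went the other way, 5 of 7 higher and 2 lower, with Jak1 at 4.76 (2.26 to 12.0).

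The slie/slie uninjured endothelial-like cells had ratios to the control uninjured cells of 0.615 for Isg15 (0.393 to 0.974), 0.652 for Bst2 (0.484 to 0.884), 0.581 for Ifit1 (0.218 to 1.64), 0.739 for Ly6e (0.622 to 0.881) and 1.26 for Ifitm2 (1.06 to 1.51). Here 0 of 7 members were called higher and 3 lower, where 21.5% of 2852 genes were called higher and 16.9% lower, and the median log2 ratio was -0.44 over the members and 0.02 over all genes. Both comparisons share the 17 control uninjured cells, whose median was 1635 UMIs, against 4071 in slie/slie uninjured and 17632.5 in control injured cells. Of the Isg15 UMIs in those 17 cells, 30 of 34 came from 3 cells. Without the 3 cells with the most UMIs of the gene in each group, Isg15 was at 1.23 and Bst2 at 1.00 in slie/slie over control uninjured cells. With cells thinned to 500 UMIs, Isg15, Ly6e and Bst2 stood at 1.23, 1.15 and 1.38 in control injured over control uninjured cells. The directions of these genes thus turned under these alternatives. Erythroid markers summed to 20348 CPM in the slie/slie uninjured and 429 CPM in the control uninjured cells, and their part was not tested.

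**Figure D5:**
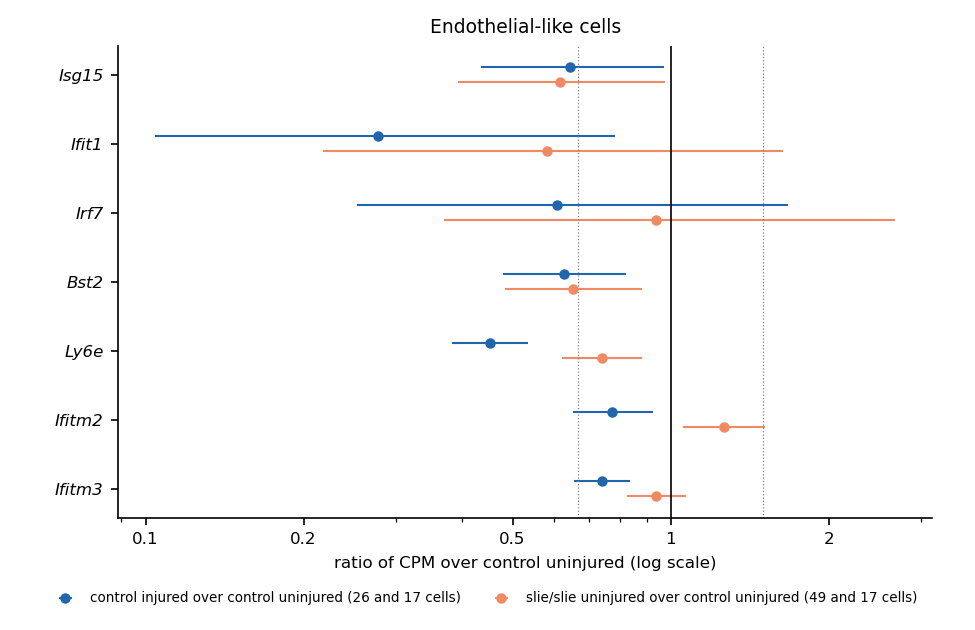
Ratio of CPM in endothelial-like cells on a log scale, for control injured over control uninjured (26 and 17 cells) and slie/slie uninjured over control uninjured cells (49 and 17 cells), with exact 95% intervals for counting error and dotted lines at 1.5-fold. Isg15 and Bst2 lie between 0.615 and 0.652 in both comparisons, which share the control uninjured cells.

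Injured and uninjured limbs of 1 genotype differed in opposite directions for Ifitm1 and for most of the other members. In slie/slie tissue, injured over uninjured, Ifitm1 was 10.3-fold higher (8.08 to 13.3), whereas Isg15 (0.645), Ifitm3 (0.607), Ly6e (0.545), Bst2 (0.391) and Ifit3 (0.0835, on 2 and 26 UMIs) were called lower. With cells weighted equally, Isg15 was at 1.37. That is 1 of 8 higher and 5 lower, where 20.6% of 9221 genes were called higher and 23.7% lower. In control tissue, injured over uninjured, Ifitm1 was 42.5-fold higher (14.5 to 206), on 2119 UMIs against 3, and Ifitm2 was 1.55-fold higher (1.37 to 1.75), a call that was lost under 5 alternatives, with values of 1.27 to 1.47. Isg15 (0.584), Ly6e (0.412), Bst2 (0.292), Ifit3 (0.174) and Ifit1 (0.10) were called lower. That is 2 of 9 higher and 5 lower, where 27.5% of 10959 genes were called higher and 25% lower. The median log2 ratios over the members were -0.68 in slie/slie and -0.78 in control tissue, against -0.02 and 0.06 over all genes. The other antiviral targets followed, with 2 of 25 higher and 16 lower in slie/slie tissue and 5 of 32 higher and 16 lower in control tissue. The cell classes differed between the limbs as well: neutrophil-like cells were 42 of 246 and 3 of 184 cells in slie/slie injured and uninjured tissue, and 147 of 751 and 0 of 60 in control injured and uninjured tissue. Endothelial-like cells were 5 of 246 and 49 of 184 cells, and 26 of 751 and 17 of 60 cells, in the same order. The class makeup and a change within cells cannot be told apart in these sums.

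Between the uninjured limbs, slie/slie over control, Ifitm1 was 5.31-fold higher (1.75 to 26.4) on 72 and 3 UMIs. Isg15 (0.476, interval 0.333 to 0.688), Bst2 (0.475, interval 0.371 to 0.611), Ly6e (0.562, interval 0.480 to 0.659), Ifit1 (0.394, interval 0.164 to 1.01) and Ifit3 (0.640, interval 0.290 to 1.55) were called lower. Ifitm2, Ifitm3 and Irf7 stood at 1.44, 1.10 and 0.713. That is 1 of 9 higher and 5 lower, where 25.5% of 7490 genes were called higher and 17.8% lower, and the median log2 ratio was -0.64 over the members and 0.08 over all genes. The other antiviral targets were split, with 6 of 25 higher, among them Ifi27l2a at 3.91 (2.33 to 7.09), and 9 lower. Endothelial-like cells held 23.6% of the UMIs in slie/slie and 41.3% in control uninjured tissue, fibroblast-like cluster 9 held 43.5% and 4.59%, and the muscle fibre markers summed to 1085 and 49.4 CPM. The class makeup and a change within cells cannot be told apart here either. The control uninjured library rests on 60 cells, and with cells thinned to 500 UMIs 0 members were called lower. Doublet calls, which were kept in, made up 14 of those 60 cells, against 4 of 184 in slie/slie uninjured tissue. Leaving them out reduced the number of members called lower, and Ifit1 turned round, as given below. With cells weighted equally Ifit1 was at 1.75, and without the 3 cells with the most UMIs of the gene Ifit3 was at 1.44.

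Levels of the members across 22 profiles, each of 1 class or cluster in 1 library with at least 20 cells, showed which members went together. These correlations of log2(CPM + 10) describe profiles that share libraries and depth, and they carry no p-value. Isg15 and Irf7 had a Pearson r of 0.80, Ifitm1 and Ifitm2 of 0.78, and Ifitm1 and Irf7 of 0.74. Ly6e and Ifit1 had an r of 0.63 and Ifit1 and Bst2 of 0.62. Ifit1 had under 50 UMIs, with 12 each in the slie/slie uninjured and control injured endothelial-like profiles. Its r values thus rest on few counts, and no grouping is read from them. Ifitm1 and Ly6e were least alike, with an r of -0.19. Among 9710 other genes, the nearest to Irf7 were Slfn2 (0.92), Srgn (0.91) and Lcp1 (0.90), and the nearest to Isg15 were Ltb (0.84), Lcp2 (0.83) and Srgn (0.83). The nearest to Bst2 were Mndal (0.86), Ifi47 (0.86) and Rasa4 (0.84), and Mndal and Ifi47 are themselves interferon targets. Ifitm1 was nearest to I830077J02Rik (0.94), Itgax (0.93) and Cd244 (0.93), Ifitm2 to Gabarap (0.90), Cdc42 (0.88) and Kctd12 (0.87), and Ifitm3 to Gnb1 (0.90), Rpl7l1 (0.85) and Emc2 (0.83). Ly6e was nearest to Mllt4 (0.77), Elk3 (0.77) and Tmem14c (0.76), and Ifit3 to Gpr146 (0.81), Slfn5 (0.79) and Ezh1 (0.78). Ifit3 had 13 UMIs in slie/slie uninjured and 12 in control injured endothelial-like cells, of 26 in each of these libraries. Its r values thus also rest on few counts, and no grouping is read from them. Ifit1 had too few UMIs for this search.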

How the data were processed

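The deposited matrices hold raw UMI counts, which the authors produced in Cell Ranger (version 5.0.1 per the file headers), with mm10 named as build in the submitters' processing notes. The sources used here do not state how barcodes were called. The smallest total per barcode was 259 UMIs in slie/slie injured, 501 in slie/slie uninjured, 500 in control injured and 48 in control uninjured. Barcodes with 200 or more genes and no more than 20% mitochondrial UMIs, 1241 in all, were used. Both control libraries shared 1 barcode. Doublet calls (2, 4, 0 and 14 in the order above) were kept in.

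Genes of the interferon lists were removed, and Leiden clustering at resolution 1 (2000 variable genes, 30 components, 15 neighbours) gave 18 clusters. Tools were scanpy 1.11.5 and leidenalg 0.10.2 in Python 3.11.15, with numpy 2.4.6 and scipy 1.17.1. A name needed at least 3 supporting markers. Cells of a class needed 10 in each library.

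UMIs were summed per class and library. CPM have exact Poisson intervals, ratios exact conditional binomial intervals and shares exact Clopper-Pearson intervals, at 95%. Genes with at least 20 UMIs over both libraries were measured and called at 1.5-fold. On independent Poisson counts simulated for slie/slie injured over control injured, intervals held the true value for 96.2% of 11313 genes. The intervals are exact for such counts, so this checked the calculation only. UMIs gathered in single cells were not simulated, and coverage in the real data was not tested.

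All 9 members are named. From each other list the 4 genes with the most UMIs could be named, and for each member the 3 most alike genes. Leading genes of clusters and single cells with many UMIs were named after their values were seen. The members and lists were chosen with earlier results of these data known. Of the listed genes, Mx2 and Cxcl11 matched no symbol. Alternatives covered the filters, doublets, denominator, weighting, deepest cells, thinning, resolution and all barcodes.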

Additional observations from a re-analysis of the deposited data

How the results depend on the processing

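Of 730 values of single members under an alternative, 547 lay within the 95% interval of the reported value, 152 lay outside it in the same direction or with no call, and 31 turned round. Of the 409 that belong to a called value, 82 were no longer past 1.5-fold, 28 of them within that interval. The alternative without the 3 cells with the most UMIs of the gene was chosen after seeing the data. The summed members in slie/slie injured over control injured tissue (0.888) gave 0.854 without those 3 cells, 0.798 with cells weighted equally, 1.01 without the 3 deepest cells, 0.838 thinned to 500 UMIs and 0.688 over all barcodes. In slie/slie injured over uninjured tissue (0.844) they gave 0.801 without the 3 cells, 0.807 without cells under 0.5% mitochondrial UMIs, 1.02 weighted equally, 0.943 without the deepest, 1.03 thinned, 0.800 over all barcodes and 1.04 without Ifitm3. In control injured over uninjured tissue (0.944) these were 1.34, 0.827, 1.62, 0.867, 1.42, 1.60 and 1.06 in that order, and 0.863 with at least 500 genes per cell. In slie/slie over control uninjured tissue (0.994) they were 1.43, 0.899, 1.27, 0.924, 1.16, 1.38 and 0.922, with 0.876 at 500 genes and 0.913 without hemoglobin and mitochondrial UMIs in the denominator. In neutrophil-like cells (0.791) the sum was 0.693 without the 3 cells, 0.726 without the deepest and 0.671 thinned. In macrophage-like cells (0.710) it was 1.05 without the deepest, 1.12 thinned and 1.43 at resolution 0.5, in fibroblast-like cluster 5 (0.730) 0.582 thinned, and in slie/slie over control uninjured endothelial-like cells (0.917) 1.06 without the 3 cells, 0.743 without doublets, 1.22 weighted equally and 1.28 thinned.

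Values that turned round were, without the 3 cells with the most UMIs of the gene, Ifit3 (1.44) in slie/slie over control uninjured tissue, Irf7 (0.95) in neutrophil-like cells, and Isg15 (1.23) and Bst2 (1.00) in uninjured endothelial-like cells. With cells weighted equally they were Isg15 in slie/slie injured over uninjured (1.37), Ifit1 in uninjured tissue (1.75) and uninjured endothelial-like cells (2.66), Irf7 in neutrophil-like cells (0.846), Isg15 in macrophage-like cells (1.04), Ifitm1 in fibroblast-like clusters 1 (0.952) and 5 (2.92), and Ifit1, Irf7 and Bst2 in control endothelial-like cells (1.63, 1.01 and 1.21). Without the deepest cells they were Ifit1 in uninjured tissue (1.20), Irf7 (0.413) and cluster 2 Isg15 (1.07) in neutrophil-like cells, Ifitm3 in macrophage-like cells (1.01) and Ifitm1 in fibroblast-like cluster 5 (2.48). Thinned, they were Isg15 in slie/slie injured over uninjured (3.08), Isg15 and Ifitm3 in macrophage-like cells (2.62 and 1.19), Ifitm1 in cluster 5 (6.10), and Isg15, Ly6e and Bst2 in control endothelial-like cells (1.23, 1.15 and 1.38). The others were Ifit1 in uninjured tissue without doublets (2.33), Ifit3 there over all barcodes (1.13), Isg15 and Ifitm1 in macrophage-like cells at resolution 0.5 (1.01 and 3.39), and Irf7 in control endothelial-like cells without cells of low mitochondrial share (1.06). The causes were not tested. Members called lower numbered 3 in slie/slie over control injured tissue, 0 when thinned and 6 over all barcodes. They numbered 5 in each injured over uninjured comparison and 3 in both when thinned, with 3 in control tissue over all barcodes. In uninjured tissue they numbered 5, against 2 without doublets, 2 weighted equally, 3 without the deepest cells, 0 thinned and 2 over all barcodes, and members called higher numbered 1, against 4 weighted equally and 3 over all barcodes. In control injured over uninjured tissue the 2 called higher became 1 under 5 alternatives. In neutrophil-like cells the 1 called higher became 0 when weighted equally, without the deepest cells and when thinned, and 2 with no minimum of UMIs. Members called higher in fibroblast-like cluster 1 numbered 0 to 4 (2 as reported) and those called lower in cluster 5 numbered 0 to 3 (1 as reported). In macrophage-like cells the 4 called lower became 1 when thinned and 1 at resolution 0.5. In control endothelial-like cells the 5 called lower became 1 without cells of low mitochondrial share, 1 weighted equally, 2 without the deepest and 1 thinned, and in uninjured ones the 3 became 0, 1, 2 and 0 in that order, with 3 called higher when weighted equally. Counts set the limit for Ifit1 and Ifit3, with 1 to 26 UMIs per library. Not run, for under 10 cells left, were neutrophil-like and macrophage-like cells without cells of low mitochondrial share and macrophage-like cells with at least 500 genes. No paired analysis was possible because each group is 1 library with no replicate numbers.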

Other observations

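Isg15 was concentrated in few cells. Cells with 5 or more Isg15 UMIs, a threshold chosen after the data were seen, numbered 2 of 246 in slie/slie injured, 5 of 184 in slie/slie uninjured, 18 of 751 in control injured and 4 of 60 in control uninjured tissue. Among neutrophil-like cells they were 0 of 42 in slie/slie injured tissue (exact interval 0 to 8.41%) and 7 of 147 in control injured tissue (4.76%). Of the control cells, 2 held 4 and 2 held 5 Isg15 UMIs, next to the threshold. Those 7 cells held 69.4% of the Isg15 UMIs of the class, at medians of 1547 UMIs per cell in them and 1207 in the 140 others. In them, against the others, the 39 other antiviral targets summed to 6413 and 2014 CPM, a ratio of 3.18 (2.54 to 3.96), and the interferon gamma targets had a ratio of 1.54 (1.27 to 1.86). Ifitm3 was 4.11-fold higher (3.01 to 5.54) in the 7 cells and found in 6 of them, and Ifi27l2a was 12.2-fold higher (6.05 to 24.6), with its 18 UMIs in 2 cells. Ifitm1 and Ifitm2 stood at 1.51 (1.21 to 1.86) and 1.30 (1.07 to 1.56), and Slfn2 at 0.985. In control injured endothelial-like cells, 5 of 26 cells held 88.1% of the Isg15 UMIs, with a ratio of 2.15 (1.87 to 2.48) for the other antiviral targets. In slie/slie uninjured endothelial-like cells, 3 of 49 cells held 53.7% of them, with a ratio of 0.990 (0.823 to 1.19). These sums describe cells of single libraries, and the cells were picked by Isg15 itself.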
